A study of Akebia trifoliata with 9 samples.

Results

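The transcripts described here were level among the leaves of untreated plants and among the leaves of acid-rained plants, and uneven among the leaves of acid-rained plants given curcumin. They were selected on their measured values. An identifier became a member if its mean over the 9 libraries was at least 20 TPM, if the highest value plus 1 divided by the lowest value plus 1 was at most 1.5 within Control and within CUR0, and if the same ratio was at least 3 within CUR50. TPM is the share of a transcript in a library after correction for its length. Of 82321 identifiers in the table, 6516 had the required mean, 5616 of these were also steady within Control and CUR0, and 136 were members. The rule would have kept the 300 largest ratios, a limit that was not reached.

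RNA was sequenced from leaves of Akebia trifoliata, a woody climbing plant, in 9 libraries. The 3 Control libraries came from plants that received distilled water at both roots and leaves. The 3 CUR0 libraries came from plants whose leaves were sprayed with artificial acid rain at pH 2.0 and whose root solution held 0 µmol/L of curcumin, and the 3 CUR50 libraries from plants under that acid rain whose roots received 50 µmol/L of curcumin, the yellow polyphenol of turmeric. Treatment lasted 28 days, with 500 mL of solution per pot every 2 days. The labels name 4 plants of about 110 cm per treatment and 3 replicates, so it is not clear whether each library is a separate plant. All errors and p-values below therefore rest on the spread of these libraries, which may in part be technical.

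As background, leaves sprayed with strong acid lose cuticle and cell membrane integrity, and plants answer such injury with changes in defence, antioxidant and photosynthesis genes. Levels of such genes can also differ between plants of one treatment, with leaf age, time of day, local damage or infection. Where replicate libraries come from separate plants, their spread holds such differences together with technical ones. The identifiers are those of an assembly made from the reads without a genome. They came without sequences, so they could be compared with the 32005 genes of the Akebia trifoliata reference table by name only. None matched, which does not tell whether the transcripts belong to those genes. No gene name, function, sequence or position is therefore given for any member. The tissue label could not be checked against leaf markers for the same reason.

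Among the 6516 identifiers with a mean of at least 20 TPM, the median ratio was 1.14 within Control, 1.18 within CUR0 and 1.30 within CUR50. A ratio of at least 3 within CUR50 was found in 370 of them, of which 72 were above the ceiling of 1.5 in Control alone, 81 in CUR0 alone and 81 in both, leaving the 136 members. Within Control 53 of the 6516 had a ratio of at least 3 (0.81%) and within CUR0 52 (0.80%), against 5.68% within CUR50. With the roles of the groups exchanged, 1 of 4399 identifiers was uneven only within Control and 2 of 4485 were uneven only within CUR0. The exchanged rule also asked for a ratio of at most 1.5 within CUR50, which 70.6% of the 6516 met. Within Control 92.3% met that ceiling and within CUR0 90.7%. The 136 were 2.42% of the 5616 steady identifiers. These shares describe the selection and carry no test.

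**Figure D1:**
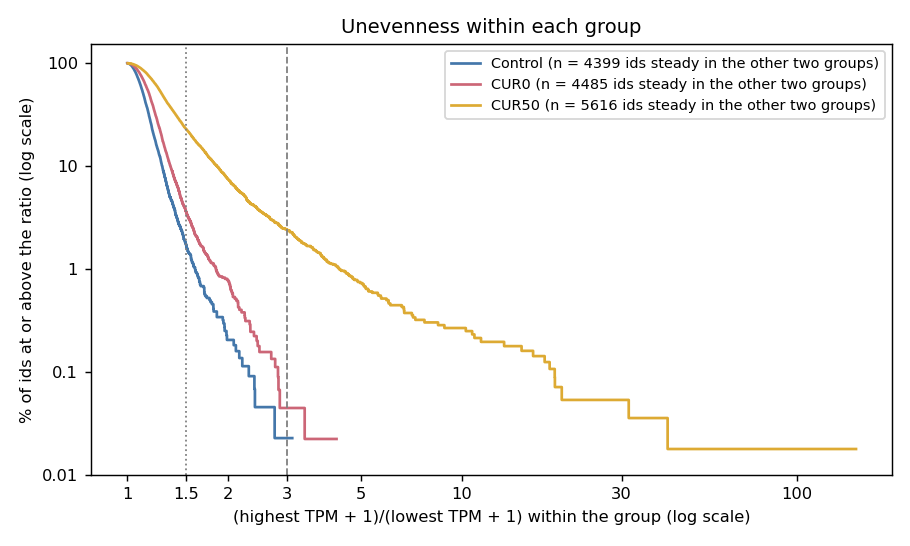
The share of identifiers, in percent on a log scale, at or above a given ratio within Control, CUR0 or CUR50, drawn over identifiers with a mean of at least 20 TPM that had a ratio of at most 1.5 in the other groups. The dotted line is the ceiling of 1.5 and the dashed line the floor of 3, which 136 identifiers passed in CUR50, 1 in Control and 2 in CUR0.

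The number of identifiers above 0 TPM was 53436, 56834 and 53867 in CUR50 replicates 1, 2 and 3, against 56031 to 58374 in the other libraries. The most abundant identifier of each library took 10.03%, 6.59% and 5.89% of CUR50 replicates 1, 2 and 3. It took 7.91% to 9.05% of the Control libraries and 10.9% to 13.7% of the CUR0 libraries. Over the steady identifiers, the median log2(TPM + 1) lay -0.02, 0.12 and 0.18 from the mean of the 6 libraries without curcumin in CUR50 replicates 1, 2 and 3, so replicate 1 was shifted slightly downward against the other CUR50 libraries. The part of these shifts in the unevenness was not tested beyond the scalings given beside the counts.

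The members spanned a wide range of abundance. Their mean over the 9 libraries ran from 20.03 to 7999 TPM with a median of 37.1 TPM, against a median of 40.3 TPM over all steady identifiers. Of the 136, 98 had a mean under 50 TPM and 16 a mean of at least 100 TPM. The ratio within CUR50 had a median of 3.95 and a maximum of 150, with 95 members under 5 and 15 at 10 or more. The member nearest to the floor had a ratio of 3.002 and the nearest identifier outside it 2.999. For the other limits, the nearest values inside and outside were 1.499 and 1.501 within Control, 1.499 and 1.508 within CUR0, and 20.03 and 19.4 TPM for the mean. Together the members made up 1.84% to 2.13% of all TPM in the Control libraries and 1.46% to 1.70% in the CUR0 libraries. In CUR50 replicates 1, 2 and 3 they made up 1.06%, 2.06% and 2.74%.

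In each member the odd CUR50 library was taken as the end of the 3 ordered log2(TPM + 1) values that lay farther from the middle value. Replicate 1 was odd in 72 members, replicate 2 in 43 and replicate 3 in 21. That is 52.94%, 31.62% and 15.44% of the members, against 48.04%, 21.92% and 30.04% of all steady identifiers. Replicate 1 was near its share there, replicate 2 above it and replicate 3 below it. The odd library was the low one in 103 members and the high one in 33. Replicate 2 was odd and low in 25.7% of members against 10.3% of steady identifiers. Replicate 3 was odd and high in 8.09% against 22.1%. The rule used these values, so the shares carry no test. In 78 members the larger gap was at least 3 times the smaller, and in 84 the other CUR50 libraries lay within a ratio of 1.5 of each other. In 17 members the smaller gap was at least 80% of the larger, so the 3 libraries formed a graded series with no clear odd one. Leaving out a CUR50 library leaves only 2 to be uneven, and the rule then kept 42 identifiers without replicate 1, 54 without replicate 2 and 91 without replicate 3.

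**Figure D2:**
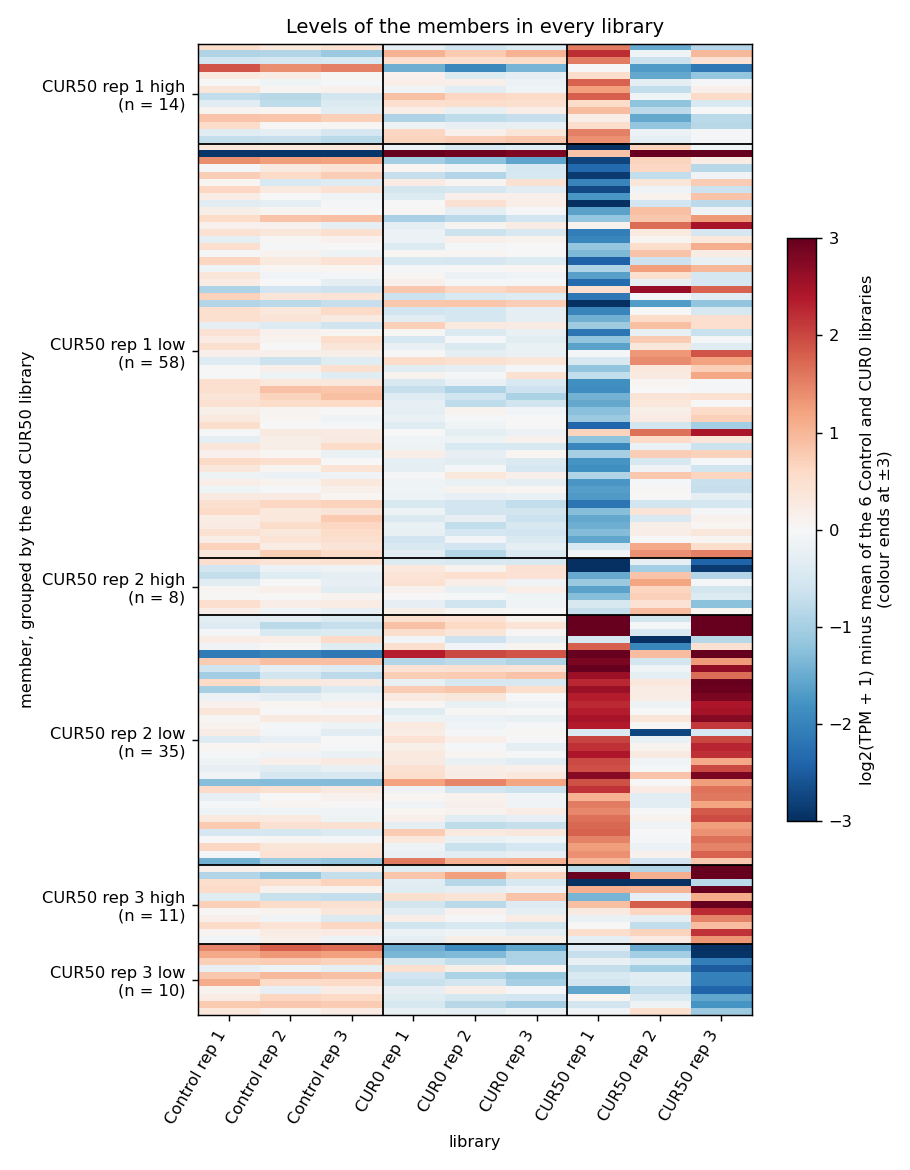
Levels of the 136 members (rows) in the 9 libraries (columns), as log2(TPM + 1) minus the mean of the 6 Control and CUR0 libraries, with colours ending at 3 in both directions. Rows are grouped by the odd CUR50 library and its direction, and the largest blocks are the 58 members low in replicate 1 and the 35 members low in replicate 2.

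The largest class, 58 members, had CUR50 replicate 1 as the low library. In 50 of the 58 this library lay below all 6 Control and CUR0 libraries. The other CUR50 libraries lay both within the range of those 6 in 16 members, both above it in 13, both below it in 3, and on different sides of a limit in 26. The low library was 1.72 below the mean of the other CUR50 libraries at the median, in log2(TPM + 1). Its count depended on the scaling, being 45 after quantile normalization and 32 after median-of-ratios scaling, which raises replicate 1 against the others. Of all steady identifiers 39.5% had replicate 1 as the low library, and of the 1157 with a CUR50 ratio from 1.5 up to 3, 50.6%, against 42.6% of the members. These shares rest on values that the rule used.

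The member of this class with the largest ratio, TRINITY_DN7858_c0_g1, stood at 40.5, 39.3 and 40.1 TPM in Control replicates 1, 2 and 3 and at 28.5, 22.8 and 24.9 TPM in CUR0. In CUR50 it stood at 1.98, 51.6 and 29.2 TPM. Replicate 1 was thus 20.4-fold below the mean of the other CUR50 libraries, of which one lay above Control and one between Control and CUR0. The most abundant member of all, TRINITY_DN11286_c0_g1, stood at 7946, 5604 and 5915 TPM in Control, at 9044, 8086 and 10592 TPM in CUR0, and at 1941, 9839 and 13026 TPM in CUR50. Its level in CUR50 replicate 1 was 5.89-fold below the mean of replicates 2 and 3, which lay in or above the CUR0 range.

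TRINITY_DN40427_c0_g1, the second most abundant member of the class, is described because of its values. It stood at 6305, 5729 and 5556 TPM in Control, at 1184, 1021 and 796 TPM in CUR0, and at 352, 3850.5 and 2824 TPM in CUR50. Replicates 2 and 3 lay between the CUR0 and Control levels and replicate 1 below CUR0. Together with TRINITY_DN11286_c0_g1 it held 2294 of the 3446 TPM of the class in CUR50 replicate 1, and 13689 of 17800 and 15850 of 19700 TPM in replicates 2 and 3. Without this pair the remaining 56 members summed to 1152, 4111 and 3850 TPM in CUR50 replicates 1, 2 and 3. The same 56 summed to 3361 to 3496 TPM in Control and 2588 to 2622 TPM in CUR0. The class was chosen for low values in replicate 1, so its sum there is a description.

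TRINITY_DN43791_c0_g1, also chosen after its values were seen, was listed at 0 in all Control libraries and stood at 60.4, 55.1 and 51.4 TPM in CUR0. In CUR50 it stood at 12.7, 222 and 113 TPM. It was thus above 0 in each library sprayed with acid, and CUR50 replicate 1 was the lowest of the 6.

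In 14 members CUR50 replicate 1 was the high library, and in 11 of these it lay above all Control and CUR0 libraries. This count also depended on the scaling. After quantile normalization 18 members were high and 45 low in replicate 1, and after median-of-ratios scaling 26 were high and 32 low. Of the 14, TRINITY_DN3321_c0_g1 had the largest ratio. It stood at 27.6, 23.8 and 26.5 TPM in Control, 15.2, 12.2 and 14.1 TPM in CUR0, and 58.1, 5.96 and 9.77 TPM in CUR50. Replicate 1 was 7.38-fold above the mean of replicates 2 and 3, and these were both below every CUR0 library. The most abundant member of these 14, TRINITY_DN5438_c0_g1, stood at 110.6, 118 and 121 TPM in Control, 237, 233 and 244 TPM in CUR0 and 484, 107 and 226 TPM in CUR50. Its CUR50 libraries formed a graded series: replicate 2 was below the Control range, replicate 3 just below the CUR0 range, and replicate 1 above all others.

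The second largest class, 35 members, had CUR50 replicate 2 as the low library, and it differed from the first in which libraries left the range of the untreated and acid-rained leaves. In 26 of the 35 replicate 2 lay within the range of the 6 Control and CUR0 libraries. In 30 of the 35 replicates 1 and 3 both lay above that range, and in 24 of these replicate 2 was within it. Their mean in these 30 was from 2.51-fold to 136-fold above the mean of the 6 libraries, with a median of 4.56-fold. These counts and folds describe the selection, because the limit on the mean included CUR50. In 12 of the 35 the mean of the 6 Control and CUR0 libraries was under 20 TPM, so that CUR50 carried them over the limit, and all 12 were among the 30. Of the 23 others, 18 had replicates 1 and 3 both above the range. Over all members, 20 of 136 had a mean under 20 TPM in those 6 libraries. Replicate 1 was the higher of the pair in 19 members and replicate 3 in 16. Summed over the class, the level was 836 ± 12 TPM in Control and 1000.2 ± 95.1 TPM in CUR0 (SD, n = 3), and 4147, 774 and 3864 TPM in CUR50 replicates 1, 2 and 3. The class held 34 members after quantile normalization and 43 after median-of-ratios scaling.

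The member with the largest ratio of all was in this class. TRINITY_DN8778_c0_g1 stood at 0.65, 0.72 and 0.53 TPM in Control, at 1.90, 1.78 and 1.24 TPM in CUR0, and at 212, 0.42 and 97.0 TPM in CUR50. It was close to undetected in 7 libraries, CUR50 replicate 2 included, and passed the limit on the mean only through replicates 1 and 3. TRINITY_DN2998_c0_g1, the most abundant of the remaining members of the class, stood at 28.2, 21.1 and 21.7 TPM in Control, 42.9, 38.2 and 30.2 TPM in CUR0, and 418, 21.1 and 405 TPM in CUR50. Replicates 1 and 3 were nearly equal, their mean was 11.1-fold above the CUR0 mean, and replicate 2 lay just under the lowest Control library.

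In 8 members CUR50 replicate 2 was the high library, and in none of them was the larger gap 3 times the smaller, 5 being graded. TRINITY_DN1240_c0_g1 stood at 35.8, 34.0 and 34.8 TPM in Control, 18.7, 18.1 and 17.7 TPM in CUR0, and 0.17, 21.2 and 3.98 TPM in CUR50. Here replicate 2 lay just above the CUR0 libraries and the other CUR50 libraries below them. TRINITY_DN29705_c1_g1 stood at 68.3, 71.3 and 50.7 TPM in Control, 71.2, 55.4 and 74.5 TPM in CUR0, and 20.7, 101 and 43.7 TPM in CUR50. Control and CUR0 overlapped, while the CUR50 libraries lay on both sides of them.

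CUR50 replicate 3 was odd in the fewest members, 11 where it was high and 10 where it was low. It lay above all Control and CUR0 libraries in 10 of the 11, and below all of them in 10 of the 10. TRINITY_DN9498_c0_g1 stood at 15.3, 14.7 and 16.2 TPM in Control, 10.9, 11.3 and 14.8 TPM in CUR0, and 7.37, 6.95 and 326 TPM in CUR50, so that replicate 3 alone was 45.6-fold above the mean of the other CUR50 libraries. TRINITY_DN1662_c0_g1 stood at 105, 94.2 and 88.4 TPM in Control, 43.3, 36.2 and 48.1 TPM in CUR0, and 120, 227 and 635 TPM in CUR50. All of its CUR50 libraries were above all Control libraries, by unequal amounts.

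The members low in replicate 3 are shown by the one with the largest ratio and the most abundant one. TRINITY_DN1745_c0_g2 stood at 104, 133 and 121 TPM in Control, 12.7, 9.25 and 12.04 TPM in CUR0, and 28.1, 12.5 and 0.93 TPM in CUR50. TRINITY_DN2213_c0_g2 stood at 332, 451 and 433 TPM in Control, 222, 198 and 190 TPM in CUR0, and 296, 212 and 96.1 TPM in CUR50. In both, the low library lay below CUR0, on the far side from Control, and replicate 1 lay between CUR0 and Control.

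**Figure D3:**
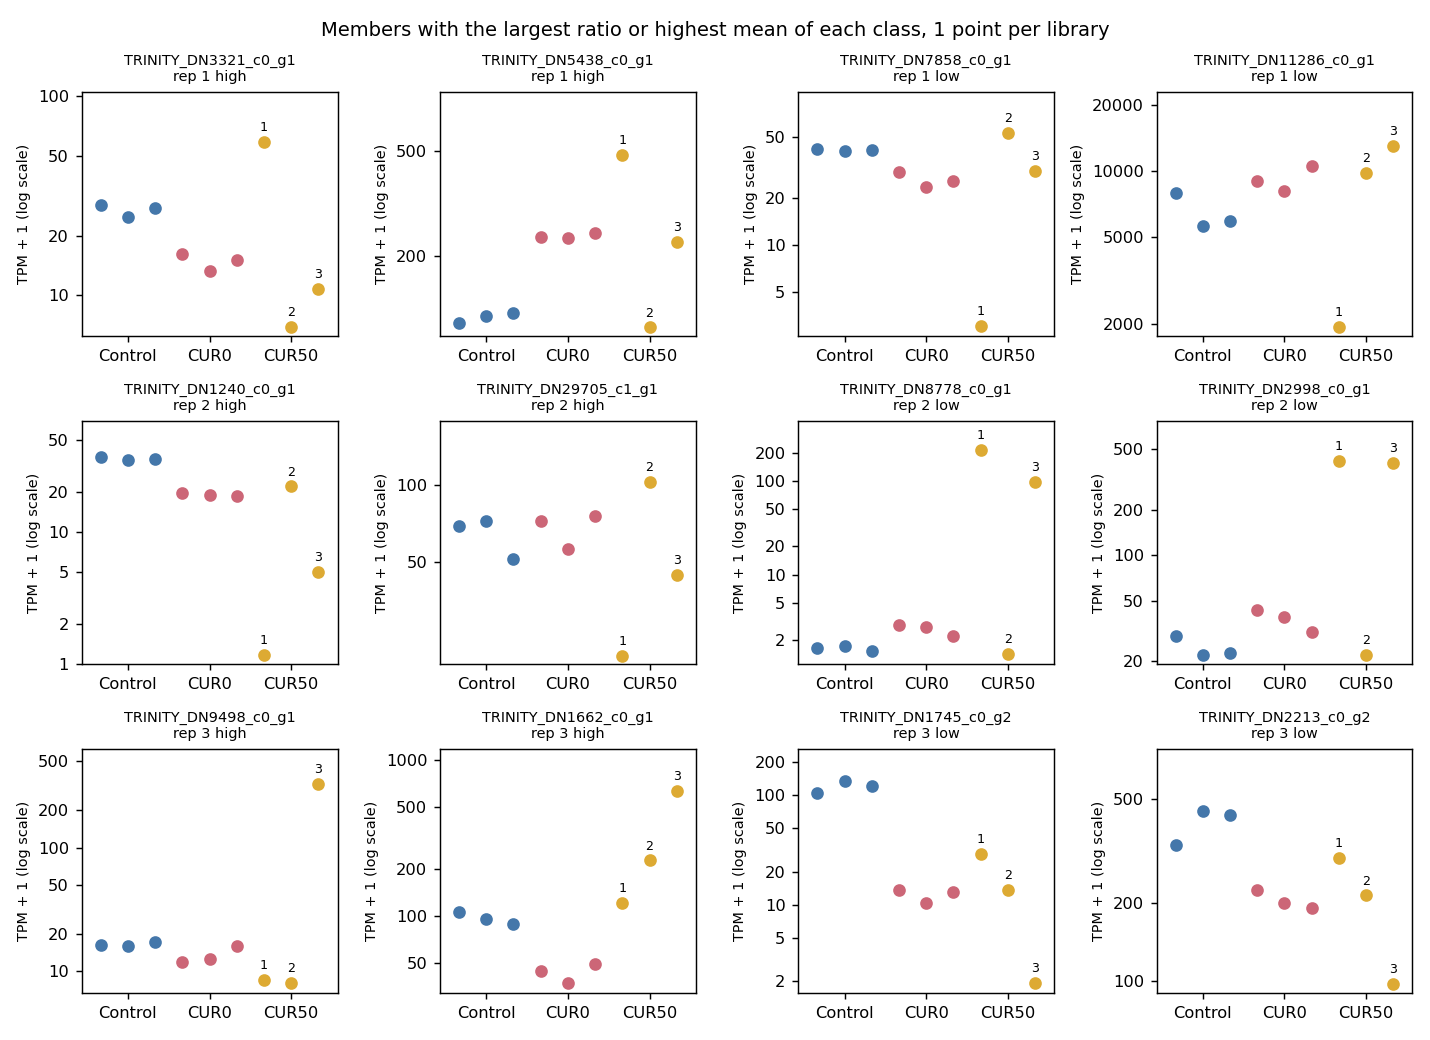
TPM + 1 on a log scale in each of the 9 libraries for the 12 members with the largest CUR50 ratio or the highest mean of each class, 1 point per library, with CUR50 replicates numbered. Control and CUR0 points lie close together within their groups, while CUR50 points lie apart, as in TRINITY_DN8778_c0_g1 at 212, 0.42 and 97.0 TPM.

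The difference between acid rain and distilled water was not part of the rule, since it involves the CUR0 and Control means and no CUR50 library. It was tested with limma on log2(TPM + 1) in the 6 libraries without curcumin, over the 31754 identifiers that reached 1 TPM in 3 or more of the 9 libraries, among them all 136 members. Of the members, 27 rose and 53 fell under acid rain (limma, Benjamini-Hochberg adjusted p under 0.05), or 58.8%. Over all tested identifiers, 5.68% rose and 9.56% fell. The spread within Control and CUR0, which enters the p-values, was part of the rule. The 5480 steady identifiers that were not members met the same ceiling and the same limit on the mean, and of these 400 rose and 908 fell, or 23.9%. The median size of the difference was 0.63 among the members, 0.19 among these steady identifiers and 0.30 over all tested, in log2(TPM + 1). Within Control and CUR0 the members were more spread than the steady non-members, with median ratios of 1.24 against 1.12 and of 1.28 against 1.17. The members were chosen on values, and these counts are a description without a test of the list.

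The count depended on the libraries in the fit. With all 9 libraries in it, the large CUR50 spread that chose the members enters their error, and 12 members passed, 6 up and 6 down, or 8.82%, beside 12.1% of the steady non-members. A count without any error estimate gave the same order as the fit over 6 libraries. The 3 CUR0 values lay all above the 3 Control values in 34 members and all below them in 60, against 12.7% and 23.2% of all tested identifiers and 16.1% and 33.3% of the steady non-members. After median-of-ratios scaling 30 members rose and 42 fell, and after quantile normalization 29 rose and 46 fell. Over all tested identifiers the balance turned with that scaling, from 1805 up and 3036 down to 2487 up and 2316 down, and it was 2407 and 2521 with quantile normalization. The median difference over all tested identifiers was -0.09, 0.01 after median-of-ratios scaling and -0.004 after quantile normalization.

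The direction of the acid rain difference varied between the classes. Of the 58 members low in CUR50 replicate 1, 29 fell and 5 rose, with a median difference of -0.41. Of the 10 low in replicate 3, 8 fell and 1 rose, with a median of -1.47. Of the 35 low in replicate 2, 12 rose and 7 fell, with a median of 0.14, and of the 14 high in replicate 1, 6 rose and 3 fell. Of the 8 high in replicate 2, 1 rose and 2 fell, and of the 11 high in replicate 3, 2 rose and 4 fell. After median-of-ratios scaling the counts of members that rose and fell were 5 and 22 for those low in replicate 1, 1 and 7 for those low in replicate 3, and 14 and 6 for those low in replicate 2. The order turned for the members high in replicate 2, to 2 that rose and 1 that fell, under this scaling and under quantile normalization. The classes themselves were kept from the unscaled values. Among the 1308 steady non-members that rose or fell, 908 fell. With replicate 1, 2 or 3 odd, 448 of 628, 207 of 312 and 253 of 368 fell. A fall was thus the more frequent direction outside the members too, whichever library was odd. Among members that rose or fell, 32 of 43, 9 of 22 and 12 of 15 fell. These counts join high and low odd libraries, so they give no share for a single class. How far the class directions are particular to the members was not tested. Differences between the classes were not tested, as members are not replicates.

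**Figure D4:**
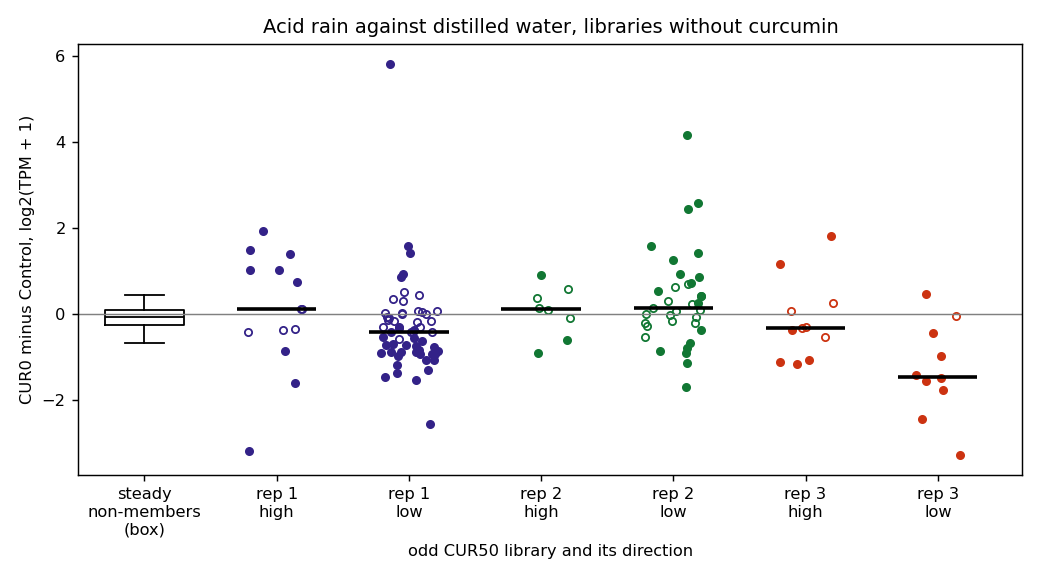
The difference of CUR0 and Control in log2(TPM + 1) for each member, by the odd CUR50 library and its direction, with filled points for adjusted p under 0.05 (limma, 6 libraries), open points for the others and bars for the class median. The box gives the median, quartiles and 5th to 95th percentiles of the 5480 steady non-members; the medians of the members low in replicates 1 and 3 are -0.41 and -1.47.

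Among the named members, TRINITY_DN1745_c0_g2 fell under acid rain from 119 ± 14.5 to 11.3 ± 1.82 TPM (SD, n = 3). On the log2(TPM + 1) scale CUR0 was -3.29 from Control, with an SE of 0.14 (limma, adjusted p = 0.000351). It alone of the 12 named by rule also passed with all 9 libraries in the fit (limma, adjusted p = 0.0434). TRINITY_DN5438_c0_g1 rose from 116 ± 5.2 to 238 ± 5.39 TPM, a log2 difference of 1.03 ± 0.06 (SE; limma, adjusted p = 0.000575). The log2 difference was -0.86 for TRINITY_DN3321_c0_g1 (limma, adjusted p = 0.00504), -0.64 for TRINITY_DN7858_c0_g1 (limma, adjusted p = 0.00812) and -0.91 for TRINITY_DN1240_c0_g1 (limma, adjusted p = 0.00105). It was -1.16 for TRINITY_DN1662_c0_g1 (limma, adjusted p = 0.00308) and -0.98 for TRINITY_DN2213_c0_g2 (limma, adjusted p = 0.00680), so that these 5 fell, each with Control and CUR0 libraries that did not overlap.

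The remaining 5 did not pass. TRINITY_DN11286_c0_g1 was higher in all CUR0 libraries than in any Control library, by 0.52 ± 0.19 (SE) in log2 units (limma, adjusted p = 0.131). TRINITY_DN2998_c0_g1 differed by 0.62 ± 0.16 (limma, adjusted p = 0.0516) and passed under 5 of the alternative settings. TRINITY_DN8778_c0_g1 differed by 0.69 ± 0.20 (limma, adjusted p = 0.0685) and passed without the intensity trend, with an adjusted p of 0.0314 by limma. In TRINITY_DN29705_c1_g1 and TRINITY_DN9498_c0_g1 the Control and CUR0 libraries overlapped. Of the members chosen for their values, TRINITY_DN40427_c0_g1 fell by 2.57 on the log2 scale (limma, adjusted p = 0.000773), a call that was lost with all 9 libraries in the fit (limma, adjusted p = 0.0770). TRINITY_DN43791_c0_g1 rose from values listed at 0, for which no fold is given (limma, adjusted p = 3.00e-05, and 0.00531 with all 9 libraries).

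The odd library was then set beside the direction of the acid rain difference, a comparison that shares no library. Among the 80 members that rose or fell, the odd library deviated from the other CUR50 libraries in the same direction as CUR0 from Control in 53 and in the opposite direction in 27. Most of the 80 had a low odd library, 62, and most fell, 53, which by itself makes the same direction the more frequent one. Among the 1308 steady non-members that rose or fell, 748 had the same direction and 560 the opposite one. With the CUR0 and Control values after median-of-ratios scaling, 45 of 72 such members had the same direction. The members and their odd libraries were kept from the unscaled values there. The split was 35 and 8 where replicate 1 was odd, 8 and 14 where replicate 2 was odd, and 10 and 5 where replicate 3 was odd. In the steady non-members it was 448 and 180, 104 and 208, and 196 and 172 for replicates 1, 2 and 3, so the same order of the replicates was found outside the members. Each library of CUR50 is 1 sample, so these splits describe the members and carry no test. In the 29 members that fell and were low in replicate 1, that library lay below all CUR0 libraries in 26, and the mean of the other CUR50 libraries lay above all CUR0 libraries in 23. Their median difference from CUR0 was -1.41 for replicate 1 and 0.38 for the mean of replicates 2 and 3, beside -0.88 for CUR0 against Control. At the median, replicate 1 lay further from Control than CUR0 did in these members, and replicates 2 and 3 lay on the Control side of CUR0. The members were picked for a low replicate 1 and for a fall in CUR0, so these positions follow in part from the choice. The mean of replicates 2 and 3 was nearer to Control in 14 of the 29 and nearer to CUR0 in 15.

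In the 12 members that rose and were low in replicate 2 the picture was another. The mean of replicates 1 and 3 lay above all CUR0 libraries in 11 of them, at a median of 1.84 above CUR0, where CUR0 was 1.10 above Control. Replicate 2 lay below all CUR0 libraries in 10, at a median of -0.53. In the 8 members that fell and were low in replicate 3, replicate 3 lay below all CUR0 libraries in 8. The mean of the other CUR50 libraries lay above all of them in 8. These groups were also picked on CUR50 values that the rule used, so the positions follow in part from the choice.

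**Figure D5:**
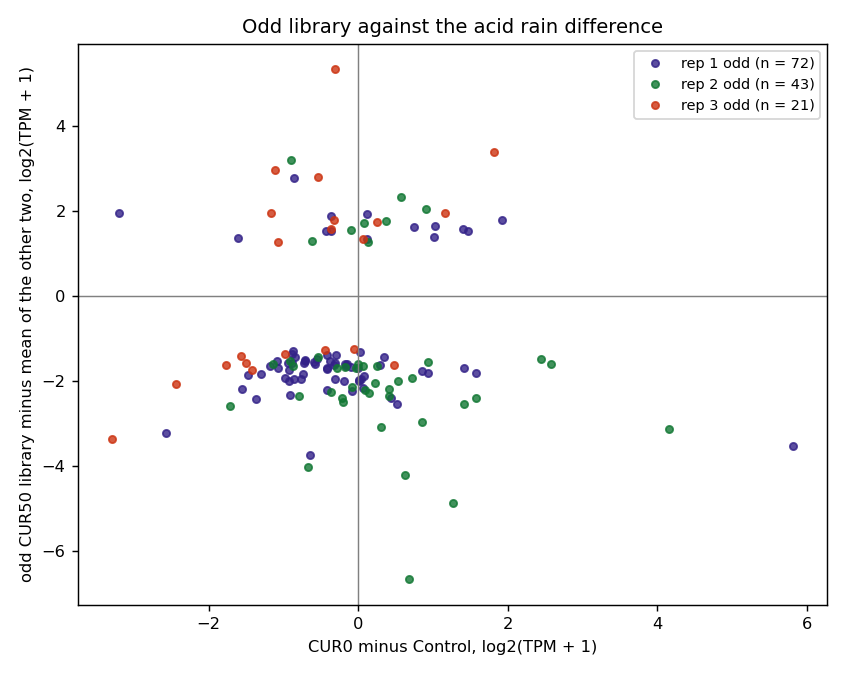
The odd CUR50 library minus the mean of the other CUR50 libraries, against CUR0 minus Control, both in log2(TPM + 1), with 1 point per member coloured by the odd replicate. The band without points around 0 on the vertical axis comes from the rule, and most points with replicate 1 odd lie in the lower left, where 29 members fell under acid rain and were low in replicate 1.

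The CUR50 group means were compared with the other groups only for completeness. In a fit of all 9 libraries, 4 of the 136 members passed in CUR50 against CUR0 and 24 in CUR50 against Control (limma, adjusted p under 0.05), where 4.77% and 12.6% of all tested identifiers passed. The rule used the spread within CUR50, so nothing can be read from these shares.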

How the data were processed

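Leaf RNA of 9 libraries was used as the authors deposited it, in 1 table of TPM per assembled gene identifier, with 2 decimals; per the submitters' processing notes, the tools named were fastp, Bowtie2, RSEM and DESeq2, with versions not given in the sources used here. Identifiers have the form of a Trinity assembly. TPM keeps no depth, so the reads behind each value are unknown. Columns were matched to samples by name; 2 Control columns lack a letter of the label, and 0 columns were left without a sample.

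The members, classes and tests were chosen with earlier results of these data known. The ratio rule used a pseudocount of 1. CUR0 and Control were compared with limma 3.58.1 (R 4.3.3), with an intensity trend, on log2(TPM + 1), so that fold changes of low identifiers are understated. Identifiers had to reach 1 TPM in 3 or more of the 9 libraries, and Benjamini-Hochberg adjustment ran over all 31754. The 6 libraries without curcumin entered the fit, because the rule selected on the spread of CUR50. The fit was tested on simulated data. Tables and plots used Python 3.11.15, pandas 2.3.3, numpy 2.4.6 and matplotlib 3.10.9.

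In each of the 6 classes the identifiers with the largest CUR50 ratio and with the highest mean TPM are named, 12 in all (the next one where both fell on 1 identifier). A further 2 members were chosen after their values were seen. The identifiers uneven only within Control or only within CUR0, which are not members, were also named after their values were seen. Gene lists could not be applied, as no identifier matched a name in the RefSeq table of assembly ASM1797944v1. Alternatives were other limits of the rule, quantile normalization, median-of-ratios scaling, a pseudocount of 0.1, sums per assembly cluster, other filters, no trend, all 9 libraries, a replicate block and leaving out each library.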

Additional observations from a re-analysis of the deposited data

How the results depend on the processing

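The number of members followed the limits of the rule. It was 48 with a ceiling of 1.3, 240 with a ceiling of 2, 300 with a floor of 2 (the most the rule keeps, of 421), 65 with a floor of 4, 218 with a mean of at least 10 TPM and 38 with a mean of at least 50 TPM. Leaving out 1 library gave 42 (without CUR50 replicate 1) to 184 members (without CUR0 replicate 1). The scalings moved it little, to 126 after quantile normalization (111 shared) and 131 after median-of-ratios scaling (101 shared). The share with CUR50 replicate 1 odd, 52.9%, became 64.6% with a ceiling of 1.3 and 44.3% after median-of-ratios scaling. In CUR0 against Control, 4841 identifiers passed; 2622 did with all 9 libraries, 3100 without a filter, 2218 with a replicate block, and 2503 to 4587 when 1 library was left out. Of the members, 80 passed, 12 did with all 9 libraries, 65 with a replicate block and 59 to 73 when 1 library was left out. Deviations of same-numbered Control and CUR0 libraries had correlations of -0.033, -0.012 and -0.038, so no shared deviation was seen between them. Whether the numbers mark a block cannot be told from this, and CUR50 was not in the check. With all 9 libraries in the fit 6 of the 12 named identifiers lost their call. Among these 12, no called difference changed its direction in any setting. TPM give no read depth, so counting error could not be computed.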

Other observations

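The 3 identifiers that were uneven in another group alone are named here after their values were seen. TRINITY_DN4993_c0_g1, uneven only within Control, stood at 4.30, 7.93 and 15.5 TPM in Control, at 92.5, 91.0 and 124 TPM in CUR0, and at 2.04, 1.53 and 1.21 TPM in CUR50. TRINITY_DN12354_c0_g1, uneven only within CUR0, stood at 61.7, 13.8 and 21.3 TPM in CUR0, at 11.9, 10.6 and 12.3 TPM in Control and at 63.3, 64.0 and 90.2 TPM in CUR50. TRINITY_DN1188_c0_g1, also uneven only within CUR0, stood at 46.0, 12.9 and 23.9 TPM in CUR0, at 20.3, 20.6 and 24.2 TPM in Control and at 44.3, 38.0 and 34.8 TPM in CUR50. In both of the latter CUR0 replicate 1 was the high library and lay near the CUR50 levels.

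The assembly groups its identifiers into clusters of related sequence. The 136 members lay in 136 different clusters, and 63 of them, 46.3%, had a further identifier in their cluster, against 60.1% of the steady identifiers. In 33 members such a partner reached a mean of 5 TPM over all libraries and over CUR50, which gave 42 partners. Of these 42, 23 had a CUR50 ratio of at most 1.5 and 5 a ratio of at least 3. Between the CUR50 libraries where the member was highest and lowest, 25 partners were higher in the first and 17 lower, with a median difference of 0.10 in log2(TPM + 1). With TPM summed per cluster and the rule applied again, 118 clusters passed. How many of these held a member was not counted.

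Between single CUR50 libraries, 3-fold differences were unequally spread over the members. The rule asked for such a difference, so these counts describe the selection and carry no test. They were taken from the unscaled values, in which replicate 1 was shifted slightly downward. In TPM + 1, replicate 1 was at least 3-fold above replicate 2 in 44 members and at least 3-fold below it in 52. It was at least 3-fold above replicate 3 in 9 and below it in 46, and replicate 2 was above replicate 3 in 12 and below it in 35.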
